A study of Mus musculus with 60 samples.

Results

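The H3K27me3 peaks at 10 transcription factor genes that pattern the ventral neural tube were followed through neural differentiation of mouse embryonic stem cells. The genes were taken by name, 10 of 21853 protein-coding genes, and comprised Nkx2-1, Nkx2-2, Nkx2-4, Nkx2-9, Nkx6-1, Nkx6-2, Olig1, Olig2, Olig3 and Dbx1. H3K27me3, the histone mark written by Polycomb repressive complex 2, was mapped by CUT&RUN, in which an antibody tethers a nuclease that releases the chromatin it binds. Cells lacking Tet1 (KO), cells with a catalytically dead TET1 (MUT) and wild-type cells (WT) were sampled as embryonic stem cells at day 0 and on the way to anterior neural progenitors at days 2, 3 and 5. A further sample at day 5 had received 5 µM XAV, an inhibitor of Wnt signalling, from day 2 on (day 5 XAV), and all cultures had bFGF until day 3. All were male lines of mixed (B6 × 129S6)F1 background, and the MUT lines were clones made by Cas9 editing of a wild-type parental line.

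The 30 H3K27me3 libraries, from 60 samples of which the rest were IgG controls, comprised 2 lines per genotype at each time point. WT70 and WT72 were used throughout, KO15 was accompanied by KO25 up to day 2 and by KO1 from day 3, and CM59, a MUT line, by CM40 and then CM69. Day and line therefore cannot be told apart for the second KO and the second MUT line. The number of peaks per library was 704 to 3466 (median 1789), and CM59 at day 5 XAV had the fewest. Read depth is unknown from peak files, so peak numbers stand in its place. The 8 housekeeping promoters chosen as unmarked controls, such as Actb and Gapdh, had no peak in any library. Of the pluripotency genes, Pou5f1 was called in 11 libraries and Utf1 in 12, all at day 5 or day 5 XAV, while Nanog and Zfp42 were called in none. The neural progenitor genes were called in 57.5% of gene and library combinations, with Pax6 in 30 libraries, Sox1 in 29, Nes in 8 and Sox2 in 2. Peaks of a repressive mark do not identify a cell type, so the neural identity of the cells was not assessed here.

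In the developing spinal cord and hindbrain, Sonic hedgehog secreted by the notochord and floor plate divides ventral progenitors into domains, each marked by a combination of homeodomain and basic helix-loop-helix factors. Nkx and Olig2 genes are induced by this signal, whereas Dbx1 marks an intermediate domain, and neighbouring factors repress each other so that boundaries are sharp. In embryonic stem cells many of these developmental genes carry H3K27me3 over CpG-rich promoters, and Polycomb complexes keep them silent until a lineage calls on them.

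A gene was called in a library when a peak overlapped the window of 1.5 kb to either side of a start site by at least 1 bp. Width is the summed length of the overlapping peaks, and rank is the place of the highest of them when the peaks of a library are sorted by total signal, with 1 at the top. A positive log2 difference in rank therefore means a place further down. Because libraries differ in their number of peaks, the percentile (the share of the peaks of a library with lower total signal) is given beside rank where a result rests on it, and 0 genes passed adjustment by percentile in any comparison. Total signal grows with width, so the 2 measures are not independent.

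The promoters of 4 genes are shown because the results turn on them: that of Olig2, whose start site entered a peak only during differentiation, that of Olig3, which had the fewest CG dinucleotides, that of Nkx6-2, whose peak varied least in width, and that of Nkx2-4, the lowest placed of the Nkx genes. Each runs from 250 bases before to 50 bases after the start site in RefSeq (GRCm38.p6), 5′ to 3′ on the strand of the gene, with CG dinucleotides, which read alike on both strands, in capitals.
Olig2, chr16:91225300-91225599, plus strand: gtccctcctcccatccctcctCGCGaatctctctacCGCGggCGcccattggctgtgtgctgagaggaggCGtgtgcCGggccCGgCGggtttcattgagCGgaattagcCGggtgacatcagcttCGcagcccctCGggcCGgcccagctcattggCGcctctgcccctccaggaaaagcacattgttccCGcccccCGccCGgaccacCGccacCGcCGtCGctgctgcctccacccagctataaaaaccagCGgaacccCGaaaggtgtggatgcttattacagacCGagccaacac
Olig3, chr10:19356289-19356588, plus strand: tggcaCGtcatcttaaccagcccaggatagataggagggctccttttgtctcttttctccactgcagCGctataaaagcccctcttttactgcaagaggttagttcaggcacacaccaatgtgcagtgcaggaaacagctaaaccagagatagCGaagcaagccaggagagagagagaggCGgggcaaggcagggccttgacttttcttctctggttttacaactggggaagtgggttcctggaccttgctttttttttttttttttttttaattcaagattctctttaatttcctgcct
Nkx6-2, chr7:139582748-139583047, minus strand: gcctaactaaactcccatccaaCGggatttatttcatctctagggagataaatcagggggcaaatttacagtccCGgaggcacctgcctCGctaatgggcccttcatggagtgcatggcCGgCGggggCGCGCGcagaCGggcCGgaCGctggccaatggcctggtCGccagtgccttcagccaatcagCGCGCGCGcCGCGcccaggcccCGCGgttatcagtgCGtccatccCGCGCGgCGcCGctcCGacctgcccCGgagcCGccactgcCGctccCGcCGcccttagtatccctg
Nkx2-4, chr2:147085296-147085595, minus strand: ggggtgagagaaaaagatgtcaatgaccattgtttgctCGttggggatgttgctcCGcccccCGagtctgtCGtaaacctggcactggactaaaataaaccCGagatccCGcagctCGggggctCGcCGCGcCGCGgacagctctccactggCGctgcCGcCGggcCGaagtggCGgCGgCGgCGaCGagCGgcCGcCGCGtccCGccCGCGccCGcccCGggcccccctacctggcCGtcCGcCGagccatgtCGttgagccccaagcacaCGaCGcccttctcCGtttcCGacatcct

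RefSeq gave promoter sequence for 9 of the 10 genes, and Olig1 is named only. The counts of CG were 25 for Olig2, 4 for Olig3, 32 for Nkx6-2 and 38 for Nkx2-4, against a median of 7 over 32841 promoters of the same length. Counts at least as high occurred in 18.4% of promoters for Olig2, 68.6% for Olig3, 9.52% for Nkx6-2 and 4.95% for Nkx2-4. Nkx6-1 had the most of the 9, with 40, and 8 of 9 lay above the median of all promoters. Over the whole regions covered by peaks, merged across libraries, CG density ran between 15.6 per kb at Nkx2-9 and 36.3 per kb at Nkx6-2, and 7 of 10 were above the median of 23.5 per kb over 3818 regions. These are descriptions of composition, and peak signal was not tested against them.

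Of the 10 genes, 6 (Nkx2-1, Nkx2-2, Nkx2-9, Nkx6-1, Nkx6-2 and Dbx1) were called in 30 of 30 libraries, which 2.01% of all protein-coding genes were, and 13.8% of the 3179 genes called in at least 2 libraries. Nkx2-4, Olig2 and Olig3 were called in 29 libraries and Olig1 in 20. All missing calls other than those of Olig1 were in WT70, which lacked Olig2 and Olig3 at day 0 and Nkx2-4 at day 5 XAV. Of 3 neighbouring pairs on the same chromosome, Nkx2-1 with Nkx2-9 on chromosome 12, Nkx2-2 with Nkx2-4 on chromosome 2 and Olig1 with Olig2 on chromosome 16, none shared a merged region. The regions, in mm10, were 9.40 kb at Nkx2-4 to 27.8 kb at Nkx2-1 long and held no start site of another protein-coding gene. The grid of peak widths sets the 20 calls of Olig1, and its absence at day 0, beside the near-complete rows of the other 9 genes.

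**Figure D1:**
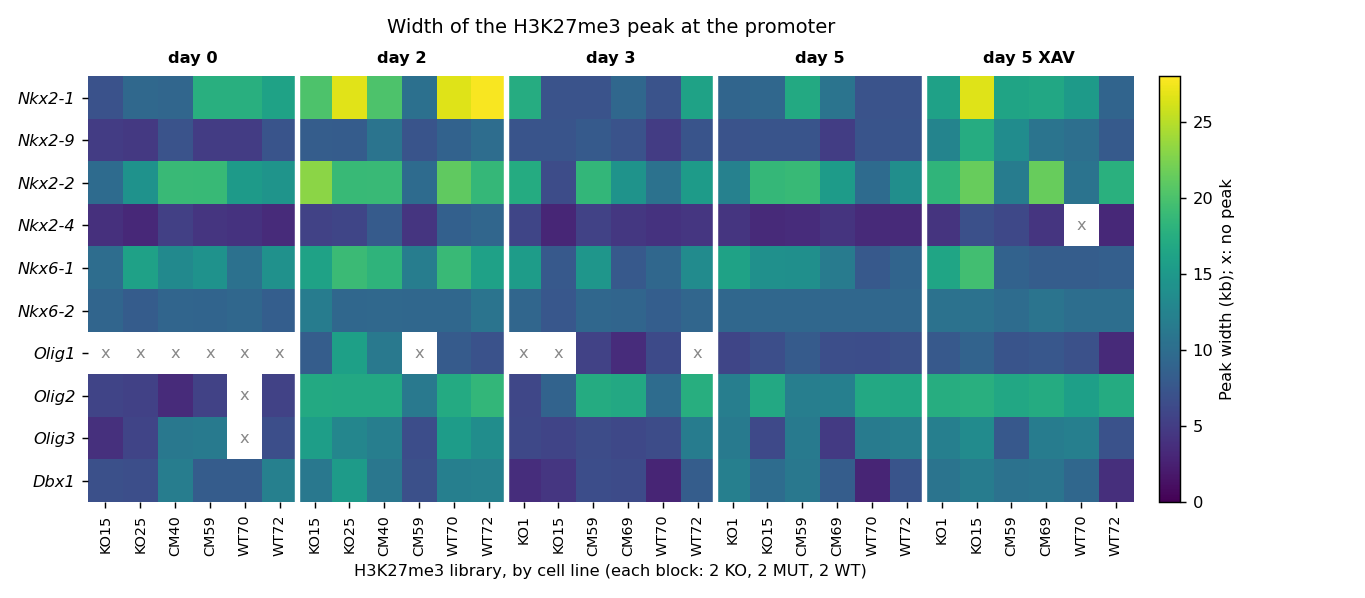
Width in kb (colour) of the H3K27me3 peak at the promoter of the 10 genes (rows) in each of the 30 libraries (columns, by cell line, KO, MUT and WT within each time point); x marks a library without a peak. Olig1 has no peak in the 6 libraries of day 0, and Nkx2-1 is widest at day 2, up to 27.7 kb.

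Olig2 directs motor neuron and then oligodendrocyte formation, and its peak grew over the gene between day 0 and day 2. The gene lies at chr16:91225457-91228677 on the plus strand, in a merged region of 91216720 to 91235791. At day 0 the width was 5.74 and 5.46 kb in the KO lines (KO15, KO25), 3.46 and 5.51 kb in the MUT lines (CM40, CM59) and 5.54 kb in WT72, with no call in WT70. At day 2 it was 17.0 and 16.9 kb in KO, 16.9 and 11.4 kb in MUT and 17.1 and 18.6 kb in WT, so no library of day 2 overlapped those of day 0. Peaks were wider at day 2 in general, with a median over regions common to all libraries of 12.5 kb, against 8.73 kb at day 0. The part of this in the width of Olig2 was not tested, and the share of all genes without overlap was not counted. Ranks of Olig2 were 902, 1199, 3045, 1683 and 1598 in the 5 libraries of day 0 with a call, and 125 to 192 in the 6 of day 2. By percentile the day 0 peaks stood at 52.8 and 58.3 in KO, 12.2 and 2.60 in MUT and 53.7 in WT72, and those of day 2 at 87.9 to 93.7.

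The edges of the peaks show where this width was gained. At day 0 the peak began 4.46 to 6.87 kb upstream of the start site and ended upstream of it too, at -1.02 and -1.41 kb in KO, -0.999 and -0.977 kb in MUT and -1.34 kb in WT72, so that 0 of 6 libraries had the start site, or any base of the gene, in a peak. These day 0 calls rest on 89 to 523 bp of the promoter window. At day 2, day 5 and day 5 XAV, all 6 libraries of each time point had the start site in a peak, and the peak covered 100% of the gene. With the start site itself as the measure, Olig2 was in a peak in 6 of 6 libraries at day 5 against 0 of 6 at day 0, an exact permutation p of 0.00926, the smallest these groups allow, and an adjusted p of 0.375 over 2834 genes. A change of none to all 6 between these days was found for 25 genes, 0.882% of those tested, and between day 2 and day 0 for 36 genes, 1.35% of 2666. The start-site measure was added after these data were seen, and the window measure gives 6 of 6 libraries at day 5 against 5 of 6 at day 0 (p = 1, exact).

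**Figure D2:**
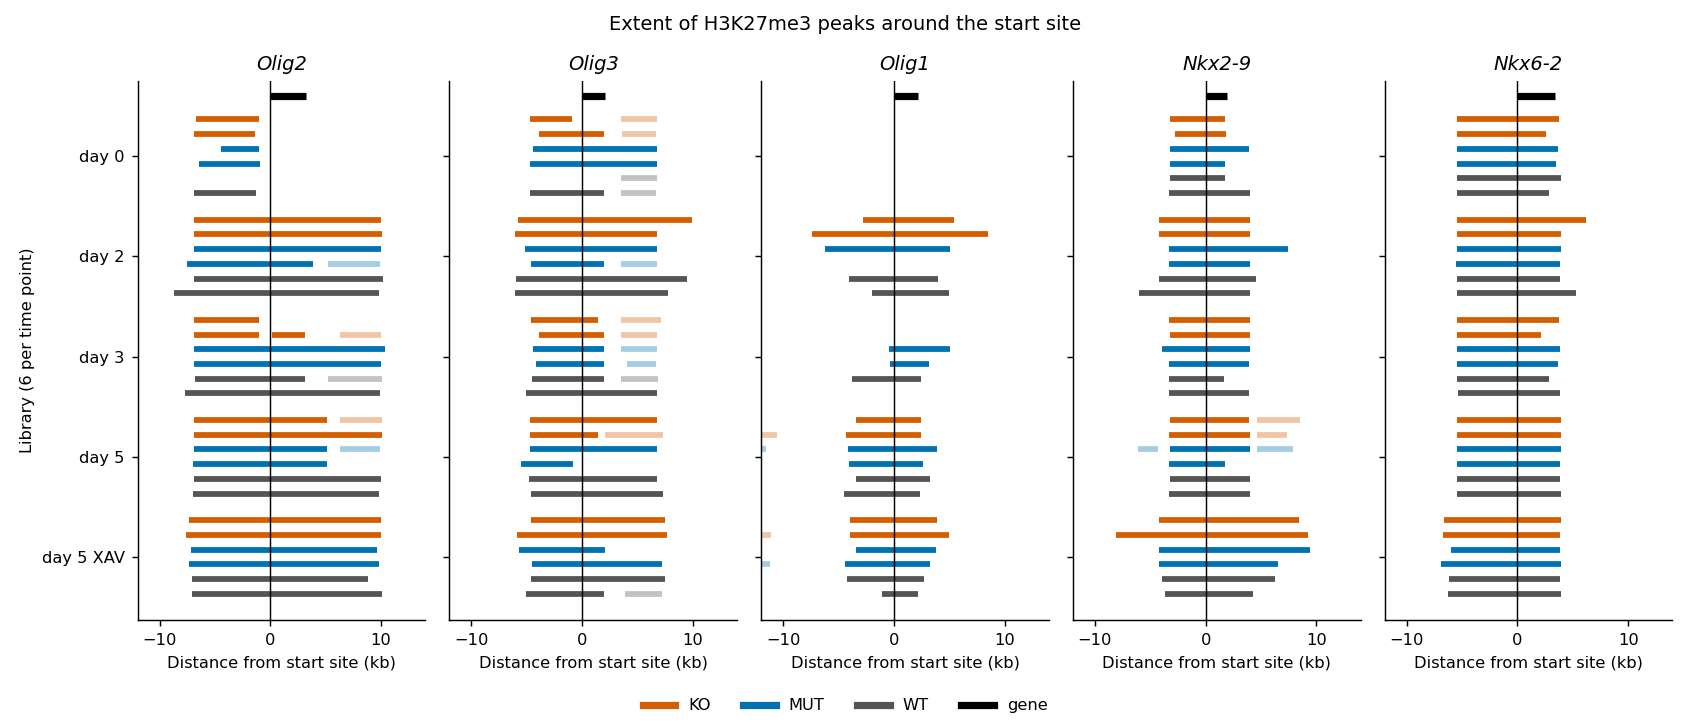
Extent of H3K27me3 peaks (bars) in kb from the start site, in the direction of transcription, for Olig2, Olig3, Olig1, Nkx2-9 and Nkx6-2, with 1 row per library, KO, MUT and WT within each time point, and pale bars for peaks outside the promoter window. At day 0 the Olig2 peak ends about 1 kb before the start site in the 5 libraries that have it, and the KO libraries of day 3 leave the start site free again.

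At day 3 the KO libraries stood apart at Olig2. They had widths of 5.91 kb (KO1) and 8.95 kb (KO15), against 17.2 and 16.9 kb in MUT and 9.94 and 17.6 kb in WT. Their ranks were 457 and 347, against 73 and 37 in MUT and 120 and 77 in WT, so the KO libraries lay outside the range of the other 4 in both measures, as they did by percentile, at 75.7 and 81.2 against 87.6 to 97.5. In KO1 the peak ended at -1.03 kb, as at day 0, and none of the gene was covered. In KO15 the peak had a gap over the start site, between -0.998 and 0.108 kb, with 93.3% of the gene covered, whereas the start site was in a peak in both MUT and both WT libraries. Both KO libraries were narrower than both WT libraries at 13.3% of 722 genes at day 3, and narrower than both MUT libraries at 12.4% of 1002. Of these genes, 23.3% ranked further down in both KO than in both WT libraries and 19.1% than in both MUT libraries. No test was made within day 3, where 2 lines a group leave 0.333 as the lowest exact p. At day 5 the widths were 11.96 and 16.9 kb in KO, 11.98 and 12.04 kb in MUT and 16.9 and 16.8 kb in WT, so MUT was narrower than WT without overlap, as were 6.45% of 837 genes, while KO overlapped WT. Ranks at day 5 were 120 and 61 in KO, 122 and 126 in MUT and 30 and 60 in WT, and at day 5 XAV they were 101 and 91 in KO, 79 and 63 in MUT and 51 and 34 in WT. Both KO and both MUT libraries thus ranked further down than both WT libraries at day 5 and at day 5 XAV. The share of all genes that did so was 35.5% for KO and 22.9% for MUT at day 5, and 31.5% and 22.3% at day 5 XAV. By percentile the groups overlapped at day 5, at 94.3 and 97.8 in KO, 95.7 and 89.4 in MUT and 97.6 and 95.7 in WT. At day 5 XAV, KO at 94.2 and 96.3 lay just below WT at 96.4 and 98.0, and MUT at 88.8 and 96.7 overlapped WT. Over all time points the Olig2 start site was in a peak in 6 of 10 KO, 8 of 10 MUT and 8 of 10 WT libraries.

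Nkx2-2 specifies the most ventral neuronal progenitors next to the floor plate and has 2 start sites. Both were free in both KO libraries at day 3, as was the single start site of Olig2. The Nkx2-2 promoter window is 3304 bp, against 3001 bp for a gene with 1 start site. Distances are from the upstream site, and a gene counted as in a peak when any of its start sites was. The Nkx2-2 peak broke between -0.349 and 1.31 kb in KO1 and between -0.427 and 1.18 kb in KO15. In the MUT libraries the peak over the upstream start site ran to 5.78 kb in CM59 and 0.198 kb in CM69, where the next peak began at 1.18 kb. The downstream start site was thus free in CM69. In the WT libraries the peak ran to 1.06 kb in WT70 and 5.80 kb in WT72. A break close to the start site was not particular to KO or to day 3: it lay between 0.213 and 1.26 kb in KO25 and 0.333 and 1.23 kb in WT72 at day 0, between 0.268 and 3.28 kb in CM59 at day 2 and between -0.106 and 1.38 kb in WT72 at day 5. Those of KO at day 3 and of KO1 and WT72 at day 5 reached over both start sites. In KO15 and KO25 at day 0, CM59 at day 2 and WT70 at day 5, the peak ended between the 2 start sites, as in CM69 at day 3. At day 3, 642 genes had the start site in a peak in both MUT and both WT libraries, among them 9 of the 10 genes described here. Of the 642 genes, 6 (0.935%) had it in a peak in neither KO library, and Olig2 and Nkx2-2 were 2 of these 6. This criterion was set after the day 3 values had been seen and carries no test. Day 3 is also where KO1 replaces KO25, and KO15, sampled on all days, had the start site free at both genes too. Over all time points at least 1 Nkx2-2 start site was in a peak in 7 of 10 KO, 10 of 10 MUT and 9 of 10 WT libraries. Outside day 3, the libraries with both start sites free were KO1 and WT72 at day 5.

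Olig1, the neighbour of Olig2 that acts in oligodendrocyte maturation, was the only gene of the 10 without a promoter peak in any library of day 0. It was called in 0 of 6 libraries at day 0, 5 of 6 at day 2, 3 of 6 at day 3, 6 of 6 at day 5 and 6 of 6 at day 5 XAV. At day 3 the calls were those of CM59, CM69 and WT70, so neither KO library had a peak. Day 5 against day 0 gave an exact permutation p of 0.00926, the smallest possible, and an adjusted p of 0.392 over 2967 genes. At an unadjusted p under 0.05, 1.58% of these genes were called more often and 4.48% less often at day 5, and 0 genes passed after Benjamini-Hochberg adjustment, Olig1 being the only gene of the 10 with an unadjusted p under 0.05. Calls in none of the libraries at day 0 and in all 6 at day 5 were found for 22 genes, 0.741%. Where present, the Olig1 peak ranked between 456 and 1236, which was the 6.45th percentile in KO15 at day 2 and the 81.5th in KO15 at day 5 XAV, with widths of 3.33 to 15.9 kb.

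Olig3, best known for its part in dorsal progenitors of the hindbrain and spinal cord, had a peak that varied mainly in extent. At day 0 it was 3.88 and 5.78 kb wide in KO, 11.2 and 11.49 kb in MUT and 6.69 kb in WT72. WT70 had no call at day 0, only a peak that began 3.53 kb downstream of the start site. In KO15 the day 0 peak ended at -0.872 kb and left the start site free. The MUT libraries were the widest, with a single peak that ran to 6.79 and 6.76 kb, whereas in KO25 and WT72 the stretch was split, with a peak to 1.93 and 1.98 kb and another from 3.58 and 3.52 kb. At day 3 the same split was present in 5 of 6 libraries and absent in WT72. At day 5 the widths were 11.5 and 6.14 kb in KO, 11.5 and 4.71 kb in MUT and 11.6 and 11.9 kb in WT, and in CM69 the peak again left the start site free. Ranks of Olig3 spanned 93 to 1451.

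**Figure D3:**
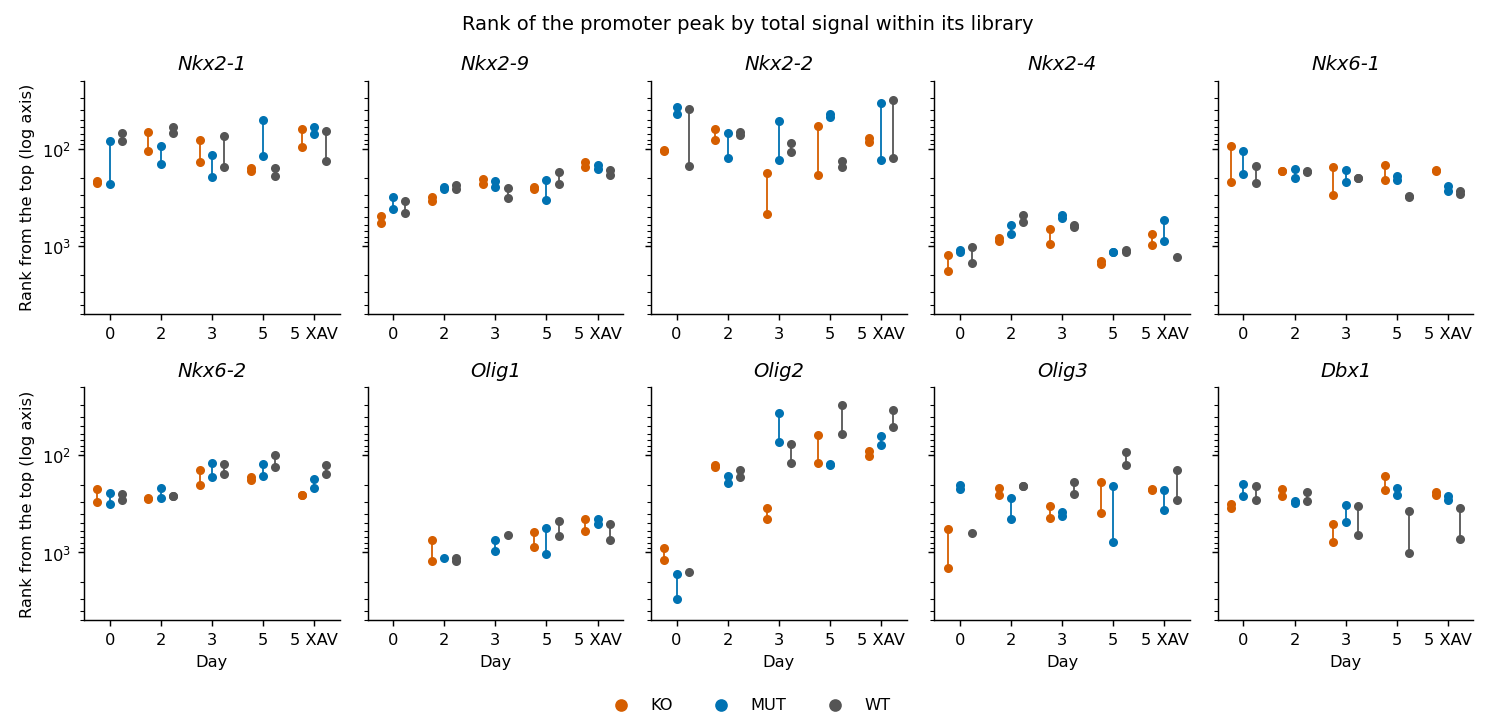
Rank of the promoter peak by total signal within its library (log axis, 1 at the top) against day for the 10 genes, 1 point per library and a line joining the 2 lines of a genotype, KO, MUT and WT side by side. Olig2 has ranks of 902 to 3045 at day 0 and of 125 to 192 at day 2, and the KO points of day 3 lie apart at 457 and 347.

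Among the Nkx2 genes, Nkx2-1, which is needed for ventral forebrain, thyroid and lung, reached the greatest width of the 10, 27.7 kb, although the median width of 15.7 kb was below those of Olig2 (16.8 kb) and Nkx2-2 (16.3 kb). Its width at day 0 was 7.11 and 9.47 kb in KO, 9.29 and 17.7 kb in MUT and 17.7 and 16.1 kb in WT. At day 2 it was 20.2 and 26.8 kb in KO, 20.2 and 10.3 kb in MUT and 26.6 and 27.7 kb in WT. At day 5 it was 9.19 and 9.35 kb in KO, 17.0 and 10.8 kb in MUT and 7.18 and 7.21 kb in WT. The order of the genotypes thus differed between days, with KO below WT at day 0 and above it at day 5. This order was common: both KO libraries were narrower than both WT libraries at 41.8% of 1129 genes at day 0. They were wider at 54% of 898 genes at day 5. Averaged over the 5 time points, the log2 width of Nkx2-1 differed by -0.01 between KO and WT and by -0.06 between MUT and WT (exact p = 0.959 and 0.816, adjusted p = 0.977 and 0.957). Day 2 libraries had wide peaks in general, with a median width over regions common to all libraries of 12.5 kb, against 8.73 kb at day 0 and 8.27 kb at day 3, and the part of this in the width of Nkx2-1 was not tested.

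Nkx2-9, which overlaps with Nkx2-2 in the most ventral progenitors, ranked higher up at day 5 than at day 0. At day 5 its ranks were 249 and 261 in KO, 211 and 332 in MUT and 172 and 227 in WT. At day 0 they were 485 and 581 in KO, 313 and 418 in MUT and 459 and 342 in WT, so the groups overlapped only through CM69 at day 5 and CM40 at day 0. The mean log2 rank was 7.89 ± 0.32 at day 5 and 8.73 ± 0.33 at day 0 (SD, n = 6 each), a difference of -0.84 (exact permutation p = 0.0185, adjusted p = 0.0479 over 672 genes). By this test 17.7% of genes placed further down and 21% placed higher up at day 5, and of the 7 genes described here that were called in all 12 libraries, Nkx2-9 and Nkx6-2 placed higher up. In a replicate block of the 4 lines sampled on both days, the difference was -0.97 for Nkx2-9 and -0.86 for Nkx6-2, with an adjusted p of 0.256 for each, where 4 lines cannot give an exact p under 0.125. Leaving out KO1, KO15, CM40, CM59, WT70 or WT72 in turn left Nkx2-9 at an adjusted p of 0.0514 to 0.127 by the same exact test. Without KO15, CM59, WT70 or WT72, fewer splits also raise the lowest exact p possible. By percentile the groups overlapped, at 72.1 to 92.6 at day 5 and 69.1 to 91.0 at day 0, with a difference of 5.53 points (exact permutation p = 0.296, adjusted p = 0.488). In WT72 the peak went down by percentile, standing at 83.6 at day 5 and 90.1 at day 0. The width of Nkx2-9 was 5.06 to 7.31 kb at day 5 and 4.61 to 7.25 kb at day 0 (log2 difference 0.29, exact p = 0.0463, adjusted p = 0.278).

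Nkx2-4, a close relative of Nkx2-1 expressed in the ventral forebrain, had the narrowest and lowest placed peak of the Nkx genes, with medians of 4.29 kb in width and 960 in rank. Its ranks in KO were 1232 and 1797 at day 0, 822 and 888 at day 2, 669 and 960 at day 3, 1429 and 1516 at day 5 and 985 and 748 at day 5 XAV. In MUT they were 1105 and 1145, 606 and 747, 510 and 479, 1139 and 1154, and 534 and 884 at the same time points. The KO peak ranked below both MUT libraries at 4 of the 5 time points, with overlap at day 5 XAV. At day 3 alone 19.1% of 1002 genes did so. The share that did so at 4 time points was not counted, so this pattern has no baseline. By percentile the KO peak of Nkx2-4 stood below both MUT libraries only at day 3, at 64.4 and 48.1 in KO against 68.7 and 67.0 in MUT. Over all days the difference was -3.16 points (exact permutation p = 0.693, adjusted p = 0.907). The difference between KO and MUT was 0.43 on the log2 scale (exact permutation p = 0.00129, adjusted p = 0.0352 over 493 genes), in a comparison in which 3.04% of genes placed further down and 2.64% higher up in KO. It was the only gene of the 10 past the threshold in any genotype comparison, and 12 of 13 alternative settings of log2 rank left an adjusted p above 0.05, with a range of 0.0373 to 0.446. The settings with 2 time points only could not have given a lower one than 0.05. Without the library of CM59 at day 5 XAV, the smallest of all, the adjusted p was 0.0614, and without any 1 of KO1, KO15, KO25, CM40 or CM59 it was 0.0706 to 0.249.

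Nkx6-1 and Nkx6-2 mark a broad band of ventral progenitors and act in motor neuron formation, and Nkx6-1 also in pancreatic beta cells. Nkx6-2 had the most constant peak of the 10. Its width lay between 7.56 and 11.7 kb in all 30 libraries, and the SD of its log2 width was 0.129, with 0.913% of the other promoters called in all 30 libraries varying less and a median of 0.441 over those promoters. At day 5 the 6 widths were 9.34, 9.39, 9.38, 9.35, 9.33 and 9.36 kb in KO1, KO15, CM59, CM69, WT70 and WT72. Its upstream edge was at -5.41 to -6.89 kb, while the downstream edge moved between 2.12 and 6.24 kb. Like Nkx2-9, it placed higher at day 5, with ranks of 100 to 179, than at day 0, with ranks of 222 to 318, and these did not overlap (log2 difference -0.92, exact p = 0.00926, adjusted p = 0.0299). At day 2 the ranks were still 218 to 283, and with day 2 in place of day 5 the adjusted p was 0.853, within a range of 0.0305 to 0.853 over the alternatives. Without KO1, KO15, CM59, WT70 or WT72 it was 0.0531 to 0.0812, and leaving out any of these but KO1 also raises the lowest exact p possible. By percentile the groups overlapped, at 89.6 to 94.3 at day 5 and 83.1 to 91.7 at day 0, with a difference of 3.75 points (exact permutation p = 0.0556, adjusted p = 0.196).

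Nkx6-1 was wider in KO than in WT at day 5. Its width there was 16.1 and 14.1 kb in KO, 13.9 and 11.7 kb in MUT and 7.81 and 9.06 kb in WT, and at day 5 XAV it was 16.4 and 19.5 kb in KO, 8.80 and 8.25 kb in MUT and 8.28 and 8.45 kb in WT. At day 0 the KO and WT values overlapped, at 10.0 and 15.98 kb in KO and 10.4 and 14.2 kb in WT. Over all time points the log2 difference between KO and WT was 0.39 (exact permutation p = 0.0504, adjusted p = 0.38 over 545 genes), and with day 5 and day 5 XAV alone, a choice made after seeing the values, it was 0.97 (adjusted p = 0.134). With these time points alone no exact p under 0.05 is possible. Wider peaks in KO were common in the same libraries, and their part in this result was not tested. At day 5, 54% of 898 genes were wider in both KO than in both WT libraries, and at day 5 XAV 72.5% of 1046 were. Median widths over common regions at day 5 XAV were 10.5 and 11.1 kb in KO, 8.57 and 8.74 kb in MUT and 8.27 and 7.89 kb in WT.

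Dbx1, which marks the progenitors of commissural interneurons, was called everywhere but varied in width by 5.33 times. At day 5 its width was 12.04 and 9.87 kb in KO, 11.2 and 8.22 kb in MUT and 2.90 and 7.28 kb in WT, and its rank was 162 and 230 in KO, 219 and 256 in MUT and 1017 and 371 in WT. At day 0 the order was the opposite for KO, with 6.80 and 6.70 kb in KO against 8.15 and 12.2 kb in WT. Over all genes, both KO libraries were wider than both WT libraries at 54% at day 5 and narrower at 41.8% at day 0. At day 3 the 6 widths of Dbx1 were 2.89 to 8.24 kb and KO lay within the WT values. Averaged over time, the differences in log2 width were 0.29 for KO against WT and 0.37 for MUT against WT (exact p = 0.336 and 0.2, adjusted p = 0.721 and 0.916).

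The question of whether loss of TET1 or of its catalytic activity alters the mark at these genes was put to calls, widths and ranks across the 5 time points, with genotypes permuted exactly among the libraries of each day. For calls, no difference passed adjustment in KO against WT, MUT against WT or KO against MUT, among 2857, 2896 and 2952 genes. At an unadjusted p under 0.05 there were 116 genes called more often and 1 less often in KO than in WT (4.06% and 0.035%), 8 and 5 in MUT than in WT (0.276% and 0.173%) and 15 and 1 in KO than in MUT (0.508% and 0.0339%), with 0 of the 10 genes among them. For width, 0 genes passed adjustment either, with 64 wider and 4 narrower at an unadjusted p under 0.05 in KO than in WT (11.7% and 0.734% of 545), 25 and 5 in MUT than in WT (5.38% and 1.08% of 465) and 28 and 3 in KO than in MUT (5.68% and 0.609% of 493). None of the 10 genes was among these. The median log2 difference in width for KO against WT was 0.08 over the 6 genes that could be tested, called in all 20 libraries, and 0.11 over all genes, and for MUT against WT it was 0.09 and 0.07. Olig1, Olig2, Olig3 and Nkx2-4 had missing calls in WT, so that their widths and ranks against WT could not enter these tests. The contrasts with WT share the same WT libraries. Libraries of a line from different days were treated as separate, although WT70, WT72, KO15 and CM59 were sampled at all 5 time points. The p-values therefore measure the spread between libraries within days and do not allow for lines repeated across days.

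For rank, 6.97% of 545 genes placed further down and 3.49% higher up in KO than in WT after adjustment, and 0 of the 6 testable genes did. By log2 rank Nkx6-2 came nearest, with a mean of 7.79 ± 0.36 in KO and 7.44 ± 0.56 in WT (SD, n = 10 libraries each), a difference of 0.35 (exact permutation p = 0.0134, adjusted p = 0.0999). By percentile it differed by -0.101 points (exact permutation p = 0.947, adjusted p = 0.978). There, Nkx6-1 and Dbx1 came nearest, higher in KO by 6.66 and 15.3 points (exact permutation p = 0.0144 and 0.0471, adjusted p = 0.129 and 0.187). At an unadjusted p under 0.05, 136 of 545 genes stood nearer the top in KO by percentile and 7 further down. For MUT against WT, 0 of 465 genes passed, with 7.1% further down and 12.7% higher up at an unadjusted p under 0.05, and none of the 6 genes was among these. Dbx1 and Nkx6-1 had the lowest p-values of the 6, with differences of -0.48 and -0.24 (exact p = 0.061 and 0.0617, adjusted p = 0.27 each).

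Width was also set side by side within each time point. At day 0, 0 of 7 genes were wider and 3 narrower in both KO than in both WT libraries, against 4.61% and 41.8% of all genes. At day 2 the counts were 1 and 3 of 10, against 32.5% and 11.7%, at day 3 they were 1 and 2 of 9, against 10.1% and 13.3%, and at day 5 they were 3 and 1 of 10, against 54% and 5.79%. At day 5 XAV, 8 of 9 were wider and 0 narrower, against 72.5% and 1.34%. In MUT against WT, 2 were wider and 0 narrower of 7 at day 0 (16.5% and 14% of all genes), 0 and 5 of 9 at day 2 (8.7% and 18.7%), 1 and 1 of 9 at day 3 (9.67% and 13%), 5 and 2 of 10 at day 5 (41% and 6.45%) and 4 and 0 of 9 at day 5 XAV (51.1% and 5.1%). The share at the genes was thus near or above the share of all genes on some days and below it on others, and no day was tested. The plot of width differences shows the genes against the spread of all promoters.

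**Figure D4:**
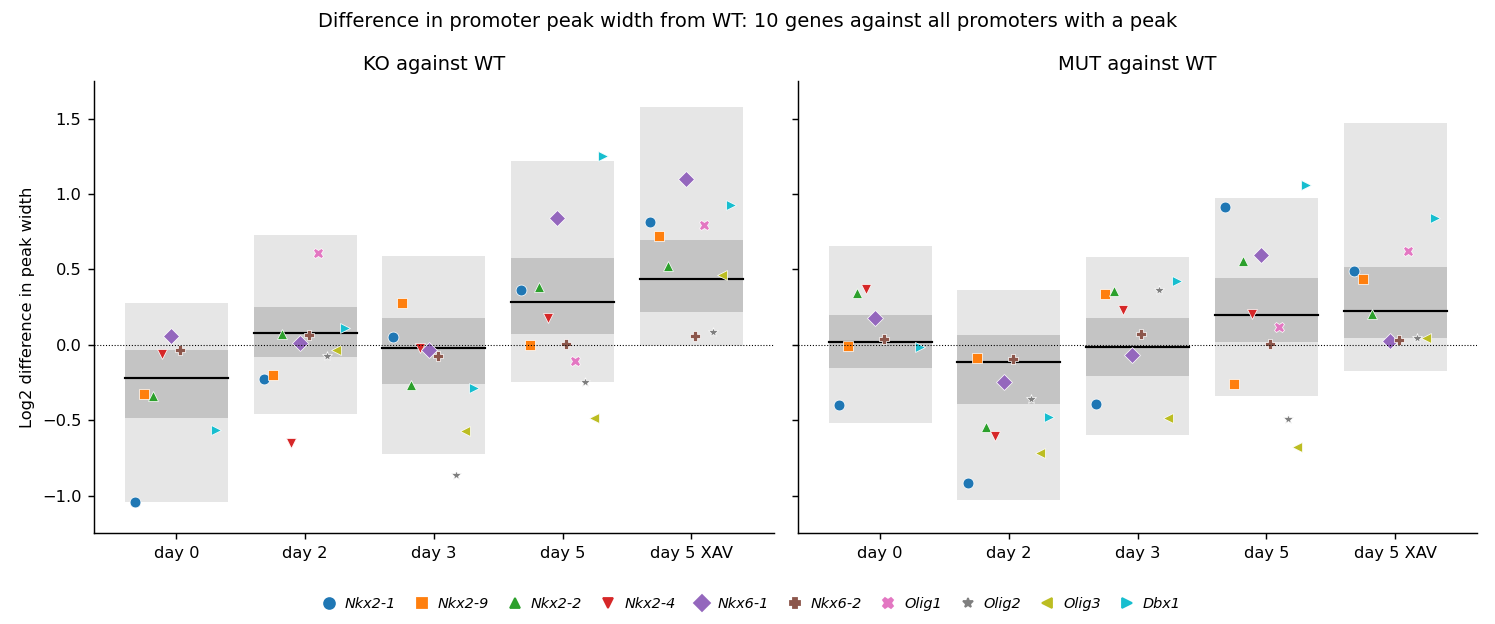
Log2 difference in promoter peak width from WT at each time point, for KO (left) and MUT (right), with 1 symbol per gene called in all 4 libraries, grey bars for the 5th to 95th and 25th to 75th percentile of all genes and a line at their median. In KO against WT the median of all genes is -0.22 at day 0 and 0.44 at day 5 XAV, and 8 of 9 of the genes are wider in both KO lines at day 5 XAV.

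XAV, set against day 5 without it in the same 6 lines, went with wider peaks at 3 of the Nkx genes before adjustment. Nkx2-9 was 12.6 and 17.3 kb wide with XAV in KO1 and KO15, 13.7 and 10.8 kb in CM59 and CM69 and 10.2 and 7.89 kb in WT70 and WT72. Without XAV it was 7.21, 7.29, 7.25, 5.06, 7.23 and 7.31 kb in the same lines, so that it was wider with XAV in 6 of 6 lines and the groups did not overlap. The ratio was lowest in the WT lines, at 1.41 in WT70 and 1.08 in WT72, and 1.75 to 2.38 in the 4 others, and whether the genotypes differ was not tested. The mean difference was 0.78 on the log2 scale (exact permutation p = 0.00926, the smallest possible, adjusted p = 0.0967 over 564 genes, with a range of 0.0831 to 0.234 over the alternatives). At an unadjusted p under 0.05, 19.1% of genes were wider and 4.96% narrower with XAV, and 0 passed adjustment.

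Nkx6-2 was 10.5, 10.6, 9.91, 10.8, 10.1 and 10.2 kb wide with XAV in KO1, KO15, CM59, CM69, WT70 and WT72, against 9.33 to 9.39 kb without it. This gain of 0.14 on the log2 scale, a ratio of 1.10, was small yet present in 6 of 6 lines (exact p = 0.00926, adjusted p = 0.0967). Nkx2-1 was wider in 5 of 6 lines, the exception being CM59, with 16.1 and 26.7 kb in KO, 16.3 and 16.8 kb in MUT and 15.3 and 9.07 kb in WT with XAV, against 7.18 to 17.0 kb without it (log2 difference 0.72, exact p = 0.0278, adjusted p = 0.142). Nkx6-1 did not share this direction, being wider in 3 lines and narrower in 3. Its ratios were 0.633 and 0.707 in the MUT lines CM59 and CM69, 1.02 and 1.39 in KO1 and KO15, and 1.06 and 0.933 in WT70 and WT72. In rank, Nkx2-9 and Nkx2-1 placed higher with XAV (log2 differences -0.59 and -0.74) and Nkx6-2 further down (0.43), with adjusted p of 0.0715, 0.112 and 0.0715 by the exact permutation test, and of 0.826, 0.649 and 0.475 by percentile, while 15.6% of genes placed further down and 21.1% higher up at an unadjusted p under 0.05 and 0 passed adjustment. Of the gene and library combinations, 98.3% were called with XAV and 100% without it, Nkx2-4 in WT70 being the missing call, while 0.298% of 2348 genes were called more often and 0.0852% less often at an unadjusted p under 0.05.

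**Figure D5:**
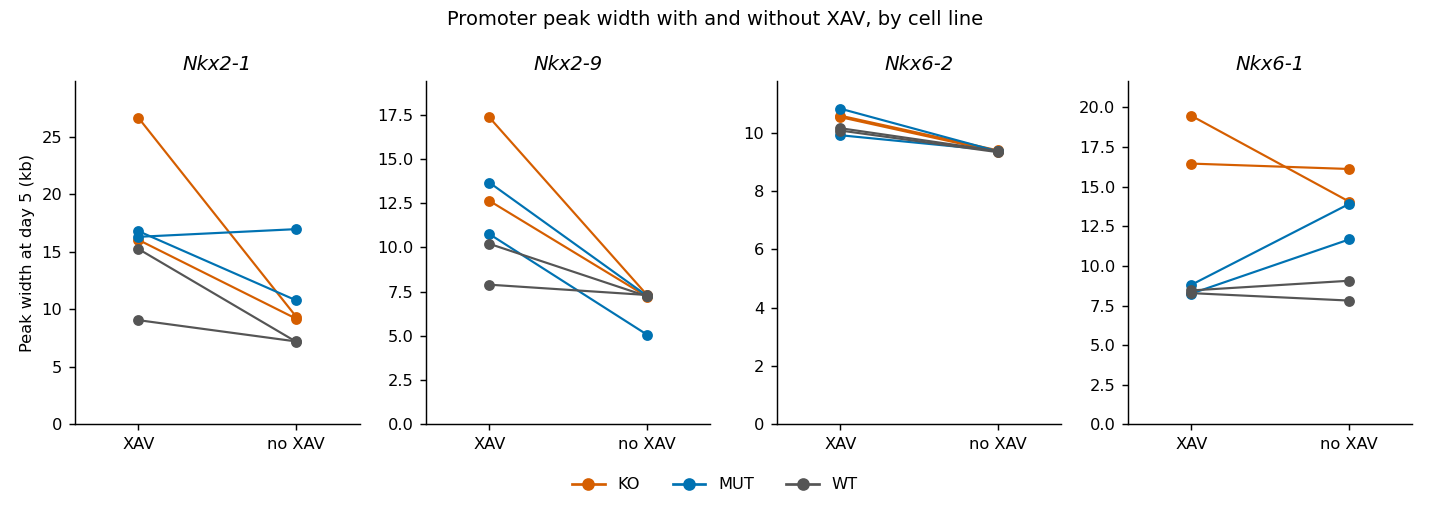
Promoter peak width in kb at day 5 with XAV (left of each panel) and without it (right) for Nkx2-1, Nkx2-9, Nkx6-2 and Nkx6-1, with a line per cell line, KO, MUT and WT by colour. All 6 lines slope the same way for Nkx2-9 and Nkx6-2, and both MUT lines and WT72 slope the other way for Nkx6-1.

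The 10 genes were called in 95.7% of gene and library combinations. The share was 29.6% for Hedgehog pathway and floor plate genes, 89.8% for other progenitor domain genes, 91.4% for ventral neuron identity genes and 77.9% for other Nkx genes. Of 15 Hedgehog and floor plate genes, 3 were called in all 30 libraries, Shh, the ligand, Ptch1, its receptor and target, and Foxa2, a floor plate factor, and 5 were called in none. Gli1, a transcriptional target of the pathway, was called in 2 libraries. Of 20 other progenitor domain genes 14 were called in all libraries, of 19 ventral neuron identity genes 15 and of 8 other Nkx genes 5. Nkx6-3, the third Nkx6 gene, was called in 20 libraries, as was Olig1, but in 2 of 6 at day 0. The list genes past an adjusted p of 0.05 were all found by log2 rank, and none passed by percentile. None passed in the replicate block at day 5 against day 0 either, where 4 lines cannot give an exact p under 0.125.

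At day 5 against day 0, where 17.7% of all genes placed further down and 21% higher up, 2 of 15 testable progenitor domain genes placed further down, Irx3 and Pax7 (log2 differences 2.08 and 1.67), and 2 higher up, Gsx2 and Gdf7 (-2.12 and -0.85). Of 3 Hedgehog and floor plate genes, Shh placed further down (0.83), and 3 of 15 ventral neuron genes, Gata2, Lhx4 and Sox14 (-1.06, -0.90 and -0.81), and 1 of 5 other Nkx genes, the heart gene Nkx2-5 (-1.51), placed higher up, with adjusted p of 0.0299 or 0.0479 in each case. Irx3, which borders the Olig2 domain dorsally, had a median rank of 90.5 at day 0, 157 at day 2, 298.5 at day 3 and 385 at day 5, while the median rank of Olig2 went the other way, at 1598, 152.5, 98.5 and 90.5. The Olig2 median at day 0 is over the 5 libraries with a call, and a link between the 2 genes was not tested. In KO against MUT, Ptch1 placed further down (0.84) and Pax6 and the motor neuron gene Mnx1 higher up (-0.98 and -0.67), with adjusted p of 0.0254, 0.0403 and 0.0254, and in KO against WT Gata2 placed further down (0.63, adjusted p = 0.04), all by exact permutation. Of the mesoderm and endoderm markers, called in 100% of gene and library combinations, Eomes placed further down in KO than in WT and MUT (0.90 and 0.92, exact permutation, adjusted p = 0.0484 and 0.0362) and Gata4 higher up in KO than in MUT and at day 5 than at day 0 (-0.51 and -0.77, adjusted p = 0.0439 and 0.0299).

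By pattern of calls over the 30 libraries, Olig2 and Olig3 were identical to each other and to Dmrt1 and Pdx1, since all 4 were missing in WT70 at day 0 alone. Nkx2-4 matched 7 genes without a difference, among them Dlx2, Dmrt3 and Foxd1. The nearest to Olig1, 1700001O22Rik, Cnpy1 and Cpt1a, each differed from it in 4 libraries, with 6 genes at that distance.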

How the data were processed

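CUT&RUN fragments of 30 H3K27me3 and 30 IgG samples were sequenced by the authors as paired ends, trimmed with Trim Galore, aligned with Bowtie in local mode to GRCm38.p6 (mm10), freed of duplicates with Picard and called per library with SEACR in stringent mode against IgG; for these libraries, versions of Trim Galore, Bowtie and SEACR were not given in the sources used here. Each deposited peak carries a signal that the authors summed over it, whole and unscaled for library size, which was used here to rank peaks within a library only. IgG entered through peak calling alone, and read depth is unknown, so no counting interval is given. Deposited lists of regions, whose positions come from the authors' own KO and WT contrast in DiffBind 3.0.15, were not used. Groups follow the sample titles, although the free text of the KO25 samples names WT70.

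GENCODE M21 gave the start sites of 21853 protein-coding genes. As a check of the build, promoters held 70.7% to 85.7% of the peaks of a library, and 11.8% to 18.6% once peaks were moved by 1 Mb. Replicates shared 0 identical peaks. Calls, log2 width and log2 rank were compared by exact two-sided permutation of labels within time points (genotypes) or within genotypes (XAV, day 5 against day 0), with the statistic summed over strata and Benjamini-Hochberg adjustment over all genes tested. Calls were tested for genes called in at least 2 libraries of a contrast, and widths and ranks for genes called in every library of it. On simulated data, a log2 change in width of 1 was recovered for 92% of the genes given it, among 545 simulated in KO against WT. The simulation changed a large share of the genes and held no line effect or library-wide shift in width. Recovery in the real data may therefore be lower. Python 3.11.15, NumPy 2.4.6, pandas 2.3.3, SciPy 1.17.1 and, for plots, Matplotlib 3.10.9 were used.

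Named were the 10 genes, Shh, Ptch1, Gli1, Foxa2, Pax6, Irx3, Pax7, Mnx1 and Nkx6-3, any gene of the lists past an adjusted p of 0.05 (at most 5 per list and contrast), and the genes most alike in calls. The lists were Hedgehog and floor plate genes, other progenitor domain genes, ventral neuron identity genes, other Nkx genes, unmarked controls and markers of pluripotent, neural progenitor, and mesoderm and endoderm cells. The genes and lists were chosen with earlier results of these data known. Alternatives covered window, overlap, equal peak numbers, other rank measures, subsets of days and leaving out each line. XAV was set against none in the same lines, so line numbers pair these samples. Deviations of the paired lines from their group means in log2 width correlated at 0.0574 in KO, -0.123 in MUT and -0.129 in WT over 564 genes, and at -0.166 to -0.0257 between day 5 and day 0 over 672 genes.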

Additional observations from a re-analysis of the deposited data

Results flagged for a closer look

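The results below were picked out because libraries of 1 group or day all moved against those of another, without overlap, under the same contrast. The differences themselves were not tested. Such opposite days are common at these sample sizes: for width in KO against WT 51.2% of 545 genes had at least 1 pair of them, and 4 of the 6 testable genes of the set did, and in MUT against WT 33.1% of 465 genes and 2 of 6 did. For rank the shares were 42.9% in KO against WT, with 2 of 6, and 36.3% in MUT against WT, with 1 of 6. Where several pairs of days qualified, the widest is given.

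Under XAV, Nkx6-1 was narrower in both MUT lines and wider in both KO lines, though barely in KO1 (ratios of 1.02 in KO1 and 1.39 in KO15). The difference in log2 width between KO and MUT was 0.831, and the log2 rank of Nkx6-1 differed by 0.505 between MUT and WT. Olig1 placed higher with XAV in both KO and both MUT lines and further down in both WT lines, with differences of -0.611 for KO minus WT and -0.782 for MUT minus WT. The shares given above concern opposite days. The share of all genes with opposite changes under XAV between genotypes was not counted, so these splits have no baseline.

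In log2 width, KO was wider than WT on the later and narrower on the earlier of 2 days, with a difference between the days of 1.85 at Nkx2-1 and 0.86 at Nkx2-2 (day 5 XAV minus day 0), 0.92 at Nkx2-9 (day 5 XAV minus day 2), 0.949 at Olig2 (day 5 XAV minus day 3) and 1.81 at Dbx1 (day 5 minus day 0). MUT against WT gave 1.83 at Nkx2-1 and 1.54 at Dbx1 (day 5 minus day 2) and 0.97 at Nkx2-4 (day 0 minus day 2).

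In log2 rank, KO against WT gave 0.821 at Nkx2-9 (day 2 minus day 3), 2.32 at Olig2 (day 3 minus day 2) and 2.1 at Dbx1 (day 0 minus day 5). MUT against WT gave 2.03 at Nkx2-1 (day 2 minus day 5), 0.701 at Nkx2-4 (day 2 minus day 3) and 2.44 at Olig2 (day 5 minus day 3). The Olig2 rank values include day 3, at which both KO libraries left the start site free and the MUT peaks ranked 73 and 37.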

How the results depend on the processing

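No result changed direction while past the threshold, and calls and widths had 0 genes past an adjusted p of 0.05 as reported and under all alternatives run. Of these alternatives, those with 2 time points only and the replicate block at day 5 against day 0 could not pass it in any case. Rank counts were fragile. With rank by the highest signal in the peak, with percentile rank or with the days after day 2 only, both counts were 0 for KO against WT and KO against MUT. They were also 0 with days 0 and 2 only and with day 5 and day 5 XAV only. There, 2 time points leave no exact p under 0.05, so these counts were fixed in advance and show nothing about fragility. For day 5 against day 0, rank by the highest signal and percentile rank gave 0 and 0. So did the replicate block of paired lines, where 4 lines cannot give an exact p under 0.125. The replicate block changed no other call. By percentile, at an unadjusted exact p under 0.05, 136 genes stood nearer the top and 7 further down in KO than in WT, 11 and 4 in MUT than in WT, 41 and 1 in KO than in MUT, 20 and 45 with XAV and 38 and 141 at day 5 than at day 0.

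With ranks among common regions, 11 genes placed further down in KO than in WT, 6 in KO than in MUT and 10 in MUT than in WT, and 86 placed higher up at day 5. With uncalled libraries placed after the last peak, KO against MUT gave 0 and 0 and day 5 against day 0 gave 228 and 430. Without the day 5 XAV library of CM59, MUT against WT gave 19 further down and 1 higher up, and KO against MUT 21 higher up. Day 2 in place of day 5 gave 181 further down, and day 3 gave 76. Leaving out each line in turn gave 0 to 23 further down and 0 to 17 higher up in KO against WT, 0 to 6 and 0 to 6 in MUT against WT, 0 to 9 and 0 to 5 in KO against MUT, and 0 to 116 and 0 to 143 at day 5 against day 0. Both counts were 0 without KO15, WT70 or WT72 in KO against WT, and without KO15, CM59, WT70 or WT72 at day 5 against day 0. Without those lines, day 5 against day 0 had 1 genotype with 1 library on each day. The fewer splits raise the lowest exact p possible, so its counts of 0 show little about fragility.

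Over the 10 genes, the mean difference in calls (percentage points) moved to -4 in KO against WT with the start site itself in a peak. In KO against MUT it moved to -4 with 500 bp of overlap or equal peak numbers, 2 with the 25% of peaks of lowest signal dropped, -6 with the start site, -3.33 after day 2 and 2.5 for days 0 and 2. For XAV it moved to 3.33 with these peaks dropped or the start site, 3.7 with equal peak numbers and -8.33 with equal numbers within time points. The median log2 width difference moved to -0.227 (days 0 and 2) and 0.359 (day 5 and day 5 XAV) in KO against WT. In day 5 against day 0 it moved to 0.364 with day 2 in place of day 5, and leaving out lines gave -0.162 to 0.0481. The median log2 rank difference moved, with the highest signal, to 0.0673 in KO against WT, -0.317 in MUT against WT, 0.0123 in KO against MUT and -0.247 at day 5 against day 0. With day 5 and day 5 XAV only it was 0.0506 in KO against WT and -0.00182 in KO against MUT. At day 5 against day 0 it was -0.437 with uncalled libraries placed last, 0.291 in the replicate block and -0.137 to 0.124 without single lines, and for XAV -0.385 to 0.01.

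For single genes, 1772 values stayed on their side of the threshold, those not past it with either sign, 29 no longer passed it and 3 newly passed it. Percentile rank is on another scale and is not among these. The 29 were Nkx2-4 in KO against MUT (12 of 13 alternatives) and Nkx2-9 (9 of 14) and Nkx6-2 (8 of 14) at day 5. Settings with 2 time points only, and the replicate block at day 5 against day 0, could not have passed it. The 3 were Nkx2-4 at day 2 and day 3 (-0.93 and -1.02) and Dbx1 at day 3 (0.88) in place of day 5. Olig2 and Olig1, not testable by rank at day 5 against day 0, differed by -4.33 and -1.79 (exact permutation, adjusted p = 0.0418 each) once uncalled libraries were placed last, a setting added after the data were seen, as were the start site, day 2 or day 3 in place of day 5, day 5 with day 5 XAV only, and the setting without the CM59 library. Peak files hold no depth, so a missing call, such as those of Olig1, says only that no peak was called.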
